A study of Homo sapiens with 2 samples.

Results

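The 10 mitochondrial tRNA genes described here are MT-TI, MT-TM, MT-TW, MT-TD, MT-TK, MT-TG, MT-TR, MT-TH, MT-TS2 and MT-TL2. They are encoded in the same sense as most mitochondrial mRNAs and lie between MT-ND1 and MT-ND5. GENCODE v29 places all 10 there, on the plus strand and typed as mitochondrial tRNA. They were taken by symbol from a table of 14914 features, in which all 10 were present. RNA was measured by RNA immunoprecipitation sequencing in HUH7, an established line of hepatocellular carcinoma cells, labelled as liver. One library, the IP, came from RNA recovered with CSTF2, and the other, the Input, from RNA of the same line. Both are labelled with the same cell line and no treatment, and each group has 1 library. A mock immunoprecipitation was not used here, so RNA held by CSTF2 and RNA carried over cannot be told apart.

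Human mitochondrial DNA is transcribed from both strands into long precursors. The tRNA genes sit between the mRNA genes in these precursors, and cutting at both ends of each tRNA frees the tRNA and the mRNAs beside it. The 5′ end is cut by a mitochondrial RNase P made of proteins alone and the 3′ end by the RNase Z ELAC2, after which TRNT1 adds the terminal CCA. CSTF2 is a subunit of the cleavage stimulation factor. It binds RNA directly, and the factor acts on nuclear pre-mRNAs at their polyadenylation sites, with a preference of CSTF2 for G- and U-rich RNA.

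The 6 sequences shown are those the values below turn on: the run of 3 adjoining genes with the highest IP to Input ratios (MT-TH, MT-TS2 and MT-TL2), MT-TG with the next ratio, MT-TK with the highest level, and MT-TD with the lowest ratio. They are the gene strand, 5′ to 3′, from GENCODE v29 transcripts (GRCh38), with T for U. Capitals mark the anticodon, taken as the middle of a 7-base loop closed by a 5-base stem with at least 4 pairs. This search placed the anticodon in 9 of the 10 tRNAs. In MT-TS2, a serine tRNA known to lack the D arm, it found no such loop, so that sequence carries no capitals.
MT-TH: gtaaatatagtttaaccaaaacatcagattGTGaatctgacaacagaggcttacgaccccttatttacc
MT-TS2: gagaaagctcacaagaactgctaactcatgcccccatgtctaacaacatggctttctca
MT-TL2: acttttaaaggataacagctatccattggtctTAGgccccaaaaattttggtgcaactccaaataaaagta
MT-TG: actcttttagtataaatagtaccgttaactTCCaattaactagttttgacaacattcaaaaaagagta
MT-TK: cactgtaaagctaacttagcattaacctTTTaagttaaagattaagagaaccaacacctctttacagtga
MT-TD: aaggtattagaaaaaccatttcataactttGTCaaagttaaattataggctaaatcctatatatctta

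Assigned reads came to 3220045 in the IP and 9517885 in the Input, so the latter was 2.96 times deeper. The mRNA of the precipitated protein, CSTF2, had 487 RPKM (reads scaled to gene length and library depth) in the IP and 6.97 in the Input. Of 8 hepatocyte marker genes, all were listed (ALB at an RPKM of 200.3 and 254 in IP and Input). The lowest level among them was that of TTR, at 1.43 and 4.25. Of 5 markers of other cells, VIM (37.9 and 28.8) and LYZ (0.704 and 1.55) were listed, so VIM was above some of the hepatocyte markers. In bulk libraries RPKM is a share of the RNA, so fewer cells holding an RNA and less of it per cell cannot be told apart. With 1 library per group no difference has a replicate check. Each 95% interval given covers counting error alone, and intervals can be too narrow, since PCR copies were counted without molecular identifiers and reads need not be independent molecules.

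Of the 10 tRNAs, 6 had an IP level at least 2-fold above the Input (MT-TH, MT-TS2, MT-TL2, MT-TG, MT-TR and MT-TK), 1 was at least 2-fold lower (MT-TD) and 3 lay within 2-fold (MT-TI, MT-TM and MT-TW). The fold was taken on the scale log2((IP + 1)/(Input + 1)) of RPKM, where the added 1 RPKM is small beside these levels. Over the 9880 features whose mean RPKM reached 1, the share that was 2-fold higher or more was 9.88%, and the share that was 2-fold lower or more was 6.83%. Of the 13 mitochondrial mRNAs, 7 were at least 2-fold higher and 1 lower, and of the 12 of the same sense 6 and 1. A count of this size was thus not particular to the tRNAs. The median log2 ratio of the 10 tRNAs was 1.93, against 0.17 for all 9880 features. Together the 10 held 8713 IP reads, 0.271% of that library (Wilson interval 0.265 to 0.276), and 6971 Input reads, 0.0732% (0.0715 to 0.0750). With the libraries scaled to their mitochondrial mRNA reads instead, which lowers every log2 ratio by 1.72, 3 tRNAs were at least 2-fold higher (MT-TH, MT-TS2 and MT-TL2) and 3 at least 2-fold lower (MT-TM, MT-TW and MT-TD). On that scale MT-TG (0.94) and MT-TR (0.50) lay within 2-fold, and MT-TK (-0.079) and MT-TI (-0.72) lay below 0. The mRNA total used there includes MT-ND6, encoded on the opposite strand, which held 286393 of its 1150269 IP reads. The ratio of MT-ND6 (10.6) was above that of the total (3.29), so without it the log2 ratios would be lowered by less than 1.72. The counts of 3 and 3 and the sign of MT-TK may thus hinge on this gene. Scaling without MT-ND6 was not tested.

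**Figure D1:**
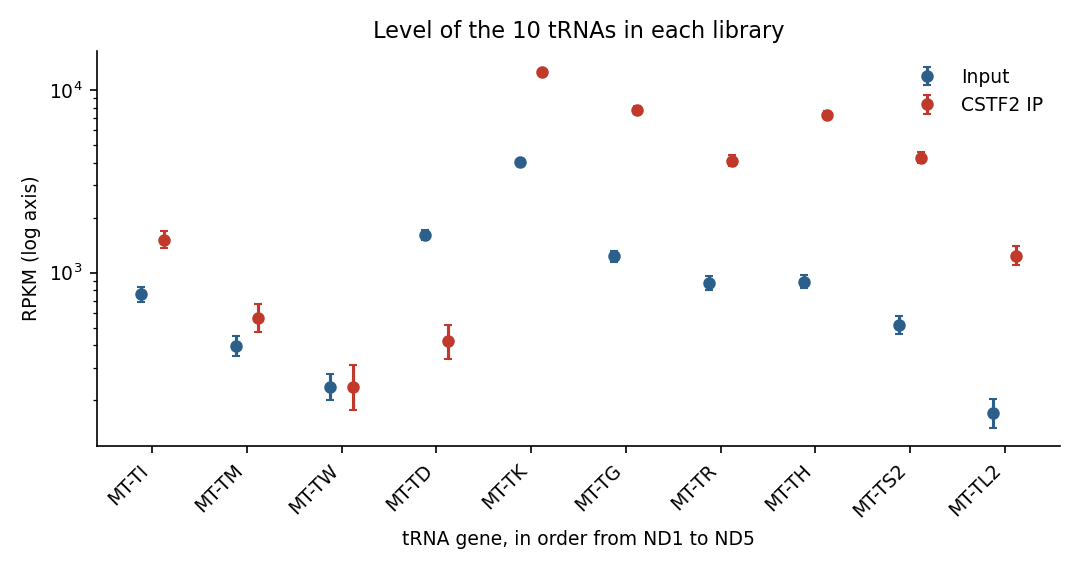
RPKM (log axis) of each of the 10 tRNAs in the Input and CSTF2 IP libraries, 1 library each, in genome order from MT-ND1 to MT-ND5; bars are 95% Poisson intervals of the reads. From MT-TK onward every IP point lies above its Input point, MT-TW has nearly the same level in both, and MT-TD is lower in the IP.

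MT-TH, MT-TS2 and MT-TL2 adjoin without a base between them and fill the space between MT-ND4 and MT-ND5. MT-TH, the histidine tRNA (chrM:12138-12206, plus strand, a single-exon gene as are the other 9), had an RPKM of 7323 in the IP and of 891 in the Input. This is a ratio of 8.22 (95% interval 7.47 to 9.05) on 1627 and 585 reads, and rank 25 by log2 ratio among the 9880 features. MT-TS2, the tRNA for the AGY codons of serine (chrM:12207-12265), had an RPKM of 4242 in the IP and of 516 in the Input. Its ratio was also 8.22 (7.17 to 9.43), at a level in each library lower than that of MT-TH. MT-TL2, the tRNA for the CUN codons of leucine (chrM:12266-12336), had an RPKM of 1238 in the IP and of 170.2 in the Input, on 283 and 115 reads. Its ratio of 7.27 (5.84 to 9.12) did not differ from that of MT-TS2 beyond counting error: MT-TS2 over MT-TL2 was 1.13 (0.875 to 1.46). The ratios of the 3 genes thus lay between 7.27 and 8.22, while their IP levels ran from 7323 RPKM at MT-TH to 1238 at MT-TL2. Summed, they had 2716 IP reads and 990 Input reads, a ratio of 8.11 (7.54 to 8.73). Reads that cross a boundary may be credited to both genes, because 2 features that overlap elsewhere in the table, RPL36A and RPL36A-HNRNPH2, were each credited with many IP reads (1204 and 1240), so these 3 values need not be independent.

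MT-TG and MT-TR flank MT-ND3, and each was higher in the IP at the deposited scaling. MT-TG, the glycine tRNA (chrM:9991-10058, between MT-CO3 and MT-ND3), had an RPKM of 7764 in the IP and of 1227 in the Input. Its ratio was 6.33 (5.81 to 6.89), on 1700 and 794 reads. MT-TR, the arginine tRNA (chrM:10405-10469, between MT-ND3 and MT-ND4L), had an RPKM of 4099 in the IP and of 879 in the Input, a ratio of 4.66 (4.18 to 5.20). Both genes abut their mRNA neighbours on either side with no base between. MT-TG exceeded MT-TR in ratio by 1.36 times (1.18 to 1.56).

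MT-TK, the lysine tRNA (chrM:8295-8364, between MT-CO2 and MT-ATP8), had the highest level of the 10 in both libraries. It reached an RPKM of 12577 in the IP and of 4041 in the Input, on 2835 and 2692 reads, and ranked 11 of all 14914 features by RPKM in the IP. Its ratio of 3.11 (2.95 to 3.28) was the lowest of the 6 higher tRNAs, below MT-TR by 1.498 times (1.33 to 1.69). MT-TK alone made up 32.5% of the reads of the 10 tRNAs in the IP and 38.6% in the Input.

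MT-TD, the aspartate tRNA (chrM:7518-7585), went the other way. It had an RPKM of 420.2 in the IP and of 1612 in the Input, on 92 and 1043 reads, which is 3.84-fold lower in the IP (3.10 to 4.80). In the Input MT-TD was the next most abundant of the 10 after MT-TK and made up 15.0% of their reads (14.1 to 15.8). In the IP it made up 1.06% (0.862 to 1.29), and only MT-TW had a lower RPKM. It abuts MT-CO2, which itself was lower in the IP (a ratio of 0.457), and lies 3 bases from MT-TS1, a serine tRNA on the opposite strand with a ratio of 0.804 (0.731 to 0.883).

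The 3 tRNAs nearest MT-ND1 were the ones within 2-fold. MT-TI, the isoleucine tRNA (chrM:4263-4331), had an RPKM of 1512 in the IP and of 760 in the Input. With a ratio of 1.99 (1.73 to 2.29) and a log2 ratio of 0.99, it fell just short of the 2-fold threshold. MT-TM, the single methionine tRNA of mitochondria, which serves both initiation and elongation (chrM:4402-4469), had an RPKM of 566 in the IP and of 396 in the Input, a ratio of 1.43 (1.15 to 1.78). MT-TW, the tryptophan tRNA, which also reads the codon UGA in mitochondria (chrM:5512-5579), had an RPKM of 237 in the IP and of 236 in the Input. Its ratio was 1.005 (0.719 to 1.38) on 52 and 153 reads, the fewest IP reads of the 10, and a difference within that interval was not detectable at this depth. Scaled to depth without the mitochondrial rRNAs, MT-TM and MT-TW lay below 0 (log2 -0.07 and -0.58), so their direction depends on the scaling.

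Placed in order of ratio, the tRNAs ran MT-TH, MT-TS2, MT-TL2, MT-TG, MT-TR, MT-TK, MT-TI, MT-TM, MT-TW and MT-TD. Of the 9 pairs of neighbours in this order, 4 had an interval of their relative ratio that included 1: the first 3 pairs, down to MT-TG, and MT-TM with MT-TW. The widest step was the last, where MT-TW exceeded MT-TD by 3.85 times (2.64 to 5.63). The levels varied more in the IP (53.0-fold from lowest to highest RPKM) than in the Input (23.7-fold). In order of RPKM, 2 of 9 neighbouring pairs had an interval that included 1 in the IP (MT-TG with MT-TH, and MT-TS2 with MT-TR) and 1 of 9 in the Input (MT-TH with MT-TR).

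Along the genome the 10 tRNAs separated at MT-CO2, a split noticed in these data. The 4 before it (MT-TI, MT-TM, MT-TW and MT-TD) had ratios from 0.261 to 1.99 and a summed ratio of 0.915 (0.834 to 1.003). That sum leans on MT-TD, with 1043 of the 1951 Input reads, while MT-TI, MT-TM and MT-TW had ratios of 1.99, 1.43 and 1.005. The 6 after MT-CO2 had ratios from 3.11 to 8.22 and a summed ratio of 4.77 (4.61 to 4.95). Across the 10 genes, log2 ratio tracked genome position (Pearson r 0.72, Spearman rho 0.82), where the genes share libraries and precursors and are not independent. Over the 12 mRNAs of the same sense, the same measures were 0.17 and 0.22. Among these, MT-ND2 early in the genome had a ratio of 5.29, and MT-CO3 and MT-ND4L farther along had 0.936 and 1.41. Among the tRNAs of the light strand, those before MT-CO2 had ratios from 0.804 (MT-TS1) to 2.19 (MT-TQ, 1.82 to 2.64). MT-TE and MT-TP, after it, had 7.43 (6.75 to 8.18) and 2.87 (2.39 to 3.45). The intervals of MT-TP and MT-TQ overlapped, so only that of MT-TE lay wholly above those before MT-CO2. Of the other heavy-strand tRNAs, MT-TF (0.920), MT-TV (0.603) and MT-TL1 (3.89) lie before MT-CO2 and MT-TT (4.42) after it.

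**Figure D2:**
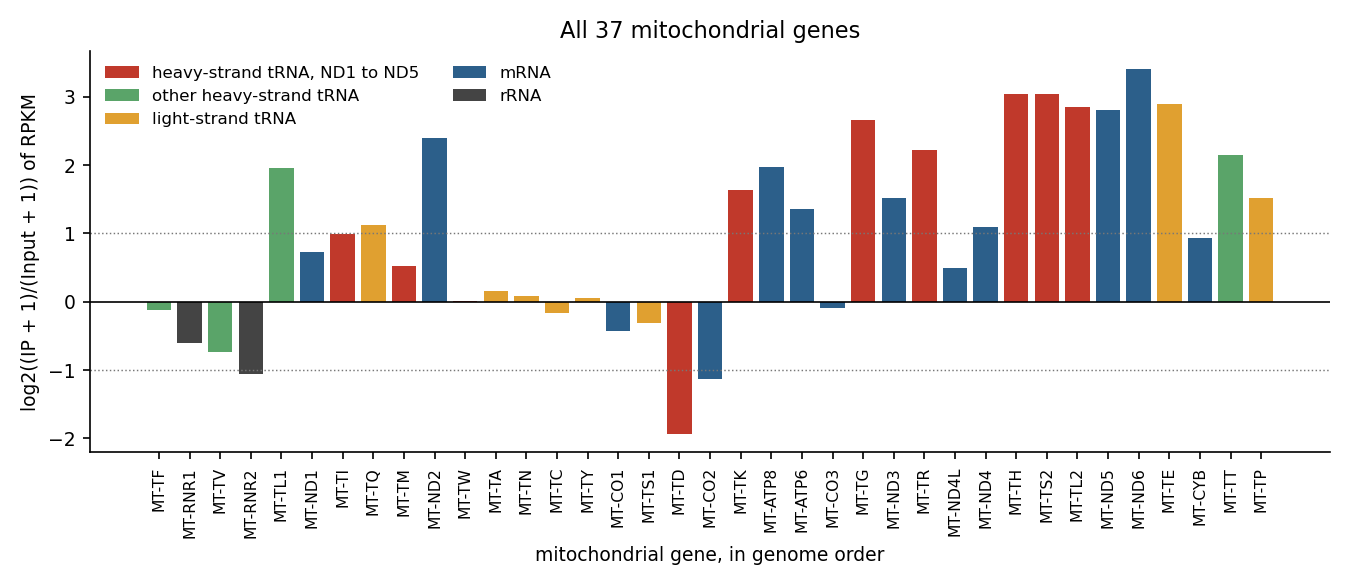
Log2((IP + 1)/(Input + 1)) of RPKM for all 37 mitochondrial genes in genome order, colored by class, with 1 library per group and dotted lines at 2-fold. The 10 tRNAs (red) run from 0.99 at MT-TI down to -1.94 at MT-TD and are all above 1 from MT-TK to MT-TL2.

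Each tRNA was then set against the nearest mRNA on either side, since such short genes (59 to 71 bases) can take in reads from transcripts that run past them. Gene length cancels in this comparison of ratios. The ratios of 4 tRNAs were above those of both adjacent mRNAs, that of 1 was below both, 2 were between them, and 3 did not differ from 1 of the neighbours beyond counting error. MT-TG stood farthest above its neighbours, at 6.76 times the ratio of MT-CO3 (6.21 to 7.36) and 2.21 times that of MT-ND3 (2.01 to 2.43). MT-TR was 1.63 times MT-ND3 (1.45 to 1.83) and 3.32 times MT-ND4L (2.97 to 3.70). MT-TH and MT-TS2 were each 3.84 times MT-ND4, and 1.18 times MT-ND5 (1.07 to 1.30 and 1.03 to 1.35). By counting error alone, the ratios of the glycine and arginine tRNAs thus differed from those of the mRNAs they touch. MT-TH also differed from MT-ND4, which it touches, whereas the ratios of the run before MT-ND5 lay close to that of MT-ND5. Reads that cross a boundary may be credited to both genes here too, so the reads of a tRNA and its mRNA need not be independent.

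MT-TL2, which abuts MT-ND5, had 1.04 times its ratio (0.841 to 1.30). MT-TD was the tRNA below both neighbours, where MT-CO1 exceeded it by 2.86 times (2.31 to 3.54) and MT-CO2 by 1.75 times (1.42 to 2.17). MT-TK lay 6.81 times above MT-CO2 (6.44 to 7.202), whose gene ends 25 bases before it, and below MT-ATP8, which exceeded it by 1.26 times (1.20 to 1.33). MT-TI was between MT-ND1 and MT-ND2, 1.20 times the ratio of the first (1.05 to 1.38). MT-TM was 0.864 times MT-ND1 (0.697 to 1.07) and MT-TW 1.35 times MT-CO1 (0.983 to 1.85), so neither differed from that mRNA beyond counting error. Those mRNAs do not touch them, at 139 bases from MT-TM and 324 from MT-TW.

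MT-ND2, for a complex I subunit, is flanked by MT-TM and MT-TW with no base between, and its ratio of 5.29 was above that of both tRNAs. MT-ND2 exceeded MT-TM by 3.69 times (2.98 to 4.58) and MT-TW by 5.26 times (3.84 to 7.21). Over the 10 tRNAs, log2 ratio had a Pearson r of 0.75 with that of the downstream mRNA and 0.17 with that of the upstream mRNA. These points are not independent, because MT-ND5 is the downstream mRNA of 3 tRNAs and MT-ND2 of 2.

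**Figure D3:**
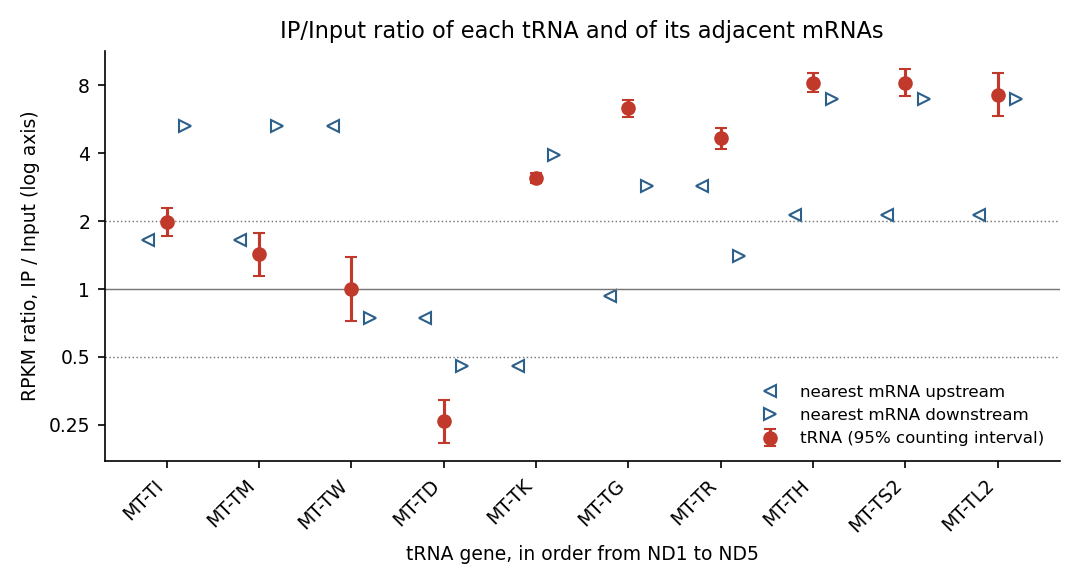
IP to Input ratio of RPKM (log axis) of each tRNA with its 95% counting interval (red) and of the nearest mRNA upstream and downstream (open triangles); the solid line is a ratio of 1 and the dotted lines are 2-fold. MT-TG (6.33), MT-TR (4.66), MT-TH and MT-TS2 (8.22 each) lie above both of their mRNAs, and MT-TD (0.261) below both.

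Per kilobase, the tRNAs were mostly far below the nearest mRNAs. The 20 pairs are of a tRNA and the nearest mRNA on 1 side, from 0 to 324 bases apart. Over these pairs, the tRNA's RPKM had a median of 9.54% of the mRNA's in the Input (1.57% to 96.7%) and 10.6% in the IP (0.763% to 218%). The tRNA exceeded the mRNA in 0 pairs in the Input and in 3 in the IP. These were MT-TK against MT-CO2 (31.9% in the Input, 218% in the IP), MT-TG against MT-ND3 (96.7% and 214%) and MT-TR against MT-ND3 (69.3% and 113%). The lowest share in the IP was that of MT-TW against MT-ND2 (4.02% in the Input, 0.763% in the IP), and the lowest in the Input that of MT-TL2 against MT-ND4 (1.57% in the Input, 5.32% in the IP). The protocol selected cDNA fragments by size on beads, and how that and the assignment of reads at gene edges act on genes this short was not tested.

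**Figure D4:**
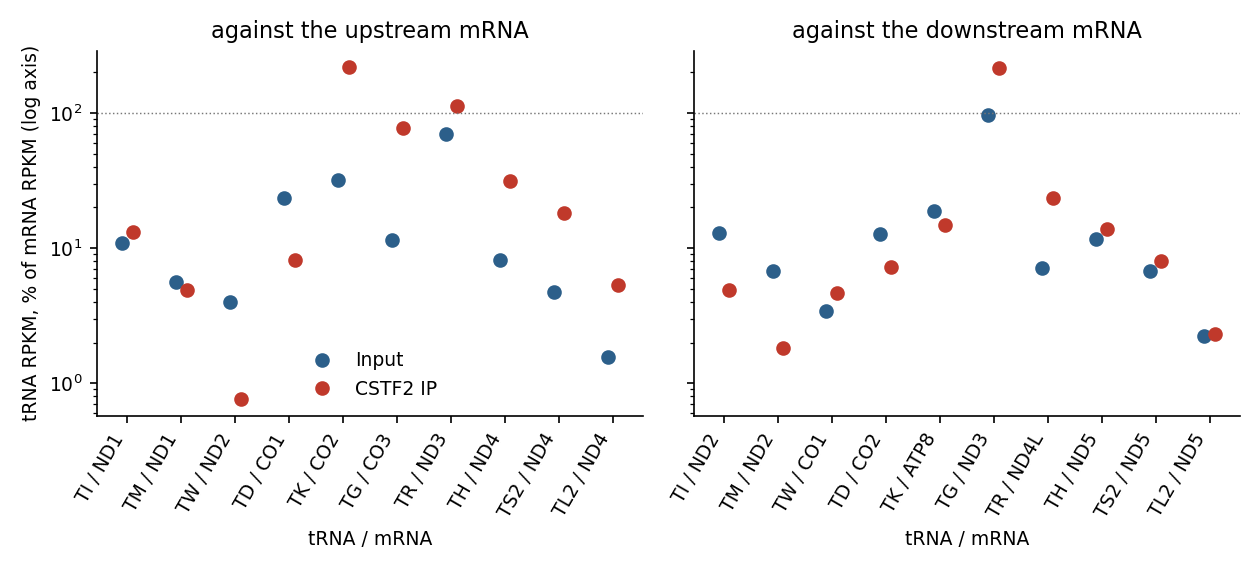
RPKM of each tRNA as a percentage (log axis) of the RPKM of the nearest mRNA upstream (left) and downstream (right), in the Input (blue) and the IP (red), 1 library each; the dotted line marks equal RPKM. Of the 20 pairs, TK / CO2 (218%), TR / ND3 (113%) and TG / ND3 (214%) lie above that line in the IP, and 0 in the Input.

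Compared with the 8 mitochondrial tRNAs of the light strand, the 10 tRNAs had the higher ratio in sum. The light-strand tRNAs had a median log2 ratio of 0.12, with 3 higher and 0 lower by 2-fold or more, and a summed ratio of 1.47 (1.42 to 1.52). The 10 summed to 3.69 (3.58 to 3.81), which is 2.51 times as high (2.40 to 2.64) by counting error. These sums are not matched for position, since every light-strand tRNA except MT-TE and MT-TP lies before MT-CO2. Before MT-CO2 the light-strand ratios ran from 0.804 to 2.19, against 0.261 to 1.99 for the 10. After MT-CO2, MT-TE had 7.43 and MT-TP 2.87, against 3.11 to 8.22 for the 10. Against the 13 mitochondrial mRNAs, at 3.29 in sum, the 10 were 1.12 times as high (1.09 to 1.16). The 13 include MT-ND6, encoded on the light strand, with a ratio of 10.6 and 286393 of their 1150269 IP reads. The median log2 ratio of the 12 mRNAs of the same sense was 1.01, against 1.93 for the 10. Light-strand tRNAs close to one of the 10 had ratios near it in some places and not in others. The light-strand tRNAs MT-TA, MT-TN, MT-TC and MT-TY, which follow MT-TW, had ratios from 0.889 to 1.12 beside its 1.005, and MT-TQ, which overlaps the end of MT-TI by 3 bases, had 2.19 (1.82 to 2.64) beside 1.99, whereas MT-TS1 had 0.804 beside the 0.261 of MT-TD. The protocols do not say that strand was kept, so sense reads and reads of the opposite transcript cannot be told apart at any of these genes. The ratio of MT-TE, on the light strand, lay within the 7.27 to 8.22 of MT-TH, MT-TS2 and MT-TL2. The 4 other heavy-strand tRNAs had a median log2 ratio of 0.92, with 2 higher and 0 lower by 2-fold or more. Outside the 10, the mitochondrial features nearest to their median log2 ratio were MT-TL1 (1.96), MT-ATP8 (1.97) and MT-TT (2.14).

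In sequence the 10 tRNAs were A- and T-rich, with 23.1% to 45.8% G and C. G and T together, the bases favoured by CSTF2, made up 37.3% to 47.8% of their bases, below the 51.5% to 66.7% of the light-strand tRNAs. The other heavy-strand tRNAs were like the 10, from 39.4% (MT-TF) to 45.3% (MT-TL1). These shares are of the gene strand, and the protocols do not say that strand was kept. Within the 10, the percentage of G and T had a Pearson r of -0.47 with log2 ratio and that of G and C 0.27, given as descriptions over 10 genes of 2 libraries. MT-TS2, with a ratio of 8.22, had the lowest G and T share (37.3%), and MT-TI, with 1.99, the highest (47.8%). The letters TGT occurred on the gene strand of 6 of 10 and on the other strand of 7 of 10. Among 10066 windows of 68 bases in the 12 mRNAs of the same sense, 24.8% and 83.4% held them. The poly(A) signal letters AATAAA occurred in MT-TL2 alone (4.44% of windows) and ATTAAA in MT-TR alone (3.08%), and neither occurred on the other strand of the 10 (4.38% and 0.179% of windows).

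Reads of nuclear copies of mitochondrial DNA could also bear on these genes. In a BLAST search of GENCODE v29 transcripts, 4 of the 10 tRNAs had a match in another gene, at 93.0% identity or less, and none of the matched genes was listed in the table. Copies outside annotated transcripts were not searched.

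The nuclear mRNAs of proteins that make and use these tRNAs were mostly within 2-fold, read beside the 9.88% of all features that were higher and the 6.83% that were lower by that much. Of 17 genes for mitochondrial RNA processing, 11 passed the filter of 1 RPKM, with 1 at least 2-fold higher and 0 lower. ELAC2, for the enzyme that cuts the 3′ end, was that gene, at an RPKM of 11.2 in the IP and of 4.70 in the Input, a ratio of 2.38 (1.99 to 2.85). The RNase P genes TRMT10C and HSD17B10 had ratios of 1.04 (0.699 to 1.52) and 1.05 (0.821 to 1.33). KIAA0391, now named PRORP and encoding the nuclease subunit of that enzyme, was below the filter at an RPKM of 0.934 in the IP and of 0.888 in the Input. TRNT1 had a ratio of 1.39 (0.976 to 1.97). SLIRP, which with LRPPRC stabilises mitochondrial mRNAs, was the lowest past the filter, 2.08-fold lower by ratio (1.62 to 2.71) but less than 2-fold lower on the scale with the pseudocount.

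Among 19 genes for tRNA modification, 12 passed the filter and 0 were past 2-fold in either direction on the scale with the pseudocount. By ratio alone, a count added after seeing the data, 3 were at least 2-fold higher (GTPBP3, QTRT1 at 2.22 and CDK5RAP1 at 2.15) and 1 lower (YRDC). The extremes were GTPBP3, which acts with MTO1 on the wobble uridine, at a ratio of 3.17 (1.83 to 5.50) and YRDC at 2.46-fold lower (1.11 to 6.44), on 30 and 7 IP reads. The 10 synthetase genes that charge these tRNAs had 8 past the filter and 0 past 2-fold on either measure, from LARS2, for the mitochondrial leucyl-tRNA synthetase, at 1.77 (1.23 to 2.52) to KARS, for the lysyl-tRNA synthetase, at 0.909 (0.763 to 1.08). Of 8 genes for mitochondrial DNA transcription and replication, 6 passed the filter, with 0 higher and 1 lower. POLRMT, for the mitochondrial RNA polymerase, had a ratio of 2.29 (1.63 to 3.20), less than 2-fold with the pseudocount. MTERF3, which represses mitochondrial transcription, rested on 2 IP reads and 38 Input reads, a ratio of 0.156 (0.0182 to 0.602).

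**Figure D5:**
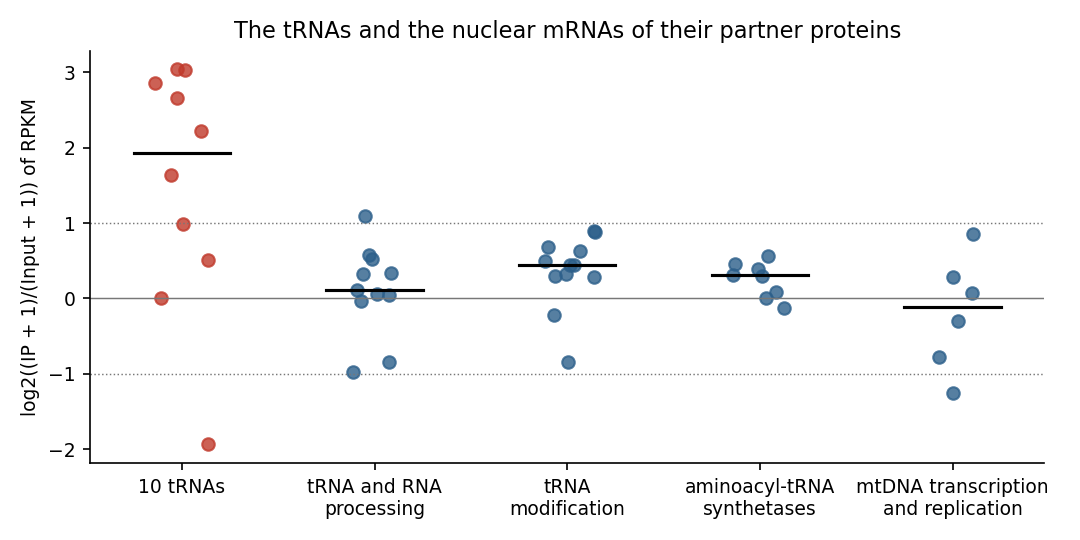
Log2((IP + 1)/(Input + 1)) of RPKM for the 10 tRNAs (red) and for nuclear genes past the filter in 4 lists of partner proteins (blue); each point is 1 gene, black bars are medians and dotted lines 2-fold. The tRNAs span -1.94 to 3.04 (median 1.93), while the partner genes lie between -1.26 and 1.10.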

How the data were processed

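The authors deposited 1 table, per the file headers with an RPKM value per feature for each library and a column of log2 fold changes (IP against Input). FastQC 0.12.0 and the build hg38 are named in the submitters' processing notes. For aligner, counter and annotation, a name was not given in the sources used here. Depths were found as the numbers that turn RPKM times GENCODE v29 exon length into whole reads (tolerance 0.01 reads). This held in both libraries for 11452 of the 12660 features matched to 1 gene (90.5%), the 10 tRNAs included. For other features reads were solved from RPKM and the deposited log2 fold change. Ratios have exact conditional (Clopper-Pearson) 95% intervals, relative ratios log-normal (Woolf) intervals and shares Wilson intervals. No p-value is given, since each group has 1 library. Recovery and intervals were tested on simulated data with independent reads. That simulation held no PCR copies and no reads shared between genes, so it says nothing of their effect on the intervals. Python 3.11.15, numpy 2.4.6, scipy 1.17.1, pandas 2.3.3, matplotlib 3.10.9 and BLAST 2.17.0 (E value limit 1e-05) were used. The genes and lists were chosen with earlier results of these data known. Named genes are the 10 tRNAs, their adjacent mRNAs, CSTF2, ELAC2, TRNT1, the RNase P genes, the highest and lowest gene of each list, and the 3 mitochondrial features nearest the median. Other light-strand tRNAs, MT-TF, MT-TV, MT-ND6, VIM, LYZ, QTRT1 and CDK5RAP1 were named after their values were seen. They show neighbours, other tRNAs, markers and the genes behind a count or a sum.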

Additional observations from a re-analysis of the deposited data

How the results depend on the processing

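The counts of tRNAs at least 2-fold higher (6) and lower (1) were the same with pseudocounts of 0.1 and 5 RPKM, a filter of 5 RPKM, no filter, ratios centred on the median of all features (a shift of 0.17) and, an alternative added after seeing the data, counting intervals wholly beyond 2-fold. At 1.5-fold they were 7 and 1, and at 4-fold 5 and 0. Scaled to mitochondrial mRNA reads, they were 3 and 3, the median log2 ratio of the 10 tRNAs was 0.21 in place of 1.93, and MT-TK turned from 1.64 to -0.079. That mRNA total includes MT-ND6 of the opposite strand, without which the shift would be smaller, by an amount that was not tested. Scaled to depth without the mitochondrial rRNAs, which lowers every log2 ratio by 0.59, the counts stayed at 6 and 1 and the median was 1.34. Both scalings divide by other totals, so they move all 10 tRNAs by a constant and leave their order and their comparison with adjacent mRNAs as they were. No paired analysis was possible because each group has 1 library. Depth limited MT-TW most, with 52 IP reads. By ratio with no pseudocount, an alternative chosen after seeing the data, the modification genes at least 2-fold higher numbered 3 instead of 0 and those lower 1 instead of 0, the processing genes lower 1 instead of 0, and the transcription genes higher 1 instead of 0.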
